A study of Homo sapiens with 4 samples.

Results

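The transcripts of the replication-dependent histone genes were compared between sorted SORE6+ and SORE6- cells of PC3, a cell line from a bone metastasis of a human prostate cancer. The genes were taken by symbol, as every gene named for 1 of the 4 histone clusters (HIST1 to HIST4), with pseudogenes left out and at least 1 TPM in at least 2 libraries. TPM is a level scaled to the library and corrected for transcript length, so that levels of different genes can be set side by side. Of 70 histone entries 1 was a pseudogene, 20 of the others were below this level, and 49 genes remained, of 17642 genes of all kinds that passed the same filter and 57963 in the tables. By protein class there were 3 H1, 13 H2A, 15 H2B, 9 H3 and 9 H4 genes.

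The cells carried a lentiviral reporter in which response elements for SOX2 and OCT4 drive a destabilized green fluorescent protein, and had been selected with puromycin. The sample labels give passages 18 to 22 and 5 µg/ml puromycin for every library, while the methods of the paper give 1 µg/ml. Cells in the fluorescent gate were SORE6+ and cells in the non-fluorescent gate of the same line were SORE6-, with 2 libraries of RNA from each gate. Both gates thus came from transduced and selected PC3 cells, and differed by reporter fluorescence at the sort. The question was which transcripts differ between the cells with an active reporter and the cells without it. The libraries bear replicate numbers 1 and 2 in each gate, and libraries of equal number are called a pair here. The methods describe RNA from separate pairs of sorted cells, but no source says that the replicate number marks such a pair.

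Replication-dependent histone genes supply the histones that package newly copied DNA. H2A, H2B, H3 and H4 form the core of the nucleosome and H1, the linker histone, binds where DNA enters and leaves it. Each class is encoded by many gene copies in clusters, and their mRNAs accumulate in S phase and are degraded when DNA synthesis ends. These mRNAs characteristically end in a stem-loop bound by the protein SLBP rather than in a poly(A) tail, although several of the genes can also give longer, polyadenylated transcripts. How much of either form was captured depends on how RNA was selected for the libraries, which is not given in the sources used here. In RNA from a cell population, fewer cells in S phase and less histone mRNA per cell cannot be told apart.

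The stem-loop is shown first because it is the element that sets these mRNAs apart from others. It was searched for in the annotated transcripts (GENCODE v29) with a pattern that fixed most of its bases, so other forms could not appear. A match was found in 27 of the 49 genes. Many genes without a match have short annotated transcripts, such as HIST1H2BK with 381 bases, which can stop before a stem-loop. The absence of a match is therefore not evidence that a gene lacks the element. The 5 forms are printed 5′ to 3′ with the 4 loop bases in capitals and the paired arms in lower case.
Form of 16 genes (6 H2A, 8 H2B and 2 H3): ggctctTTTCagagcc
Form of 4 H4 genes: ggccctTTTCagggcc
Form of 3 H4 genes: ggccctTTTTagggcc
Form of 3 H2B genes: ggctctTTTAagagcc
Form of HIST1H2AG: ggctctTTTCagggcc
The H4 genes differed from the H2A, H2B and H3 genes in the first arm of the stem. In the second arm they differed from all of these but HIST1H2AG. The last base of the loop differed within the H2B class and within the H4 class. HIST1H4I, HIST2H4A and HIST2H4B carried the H4 form that ends its loop in T, and HIST1H2BC, HIST1H2BD and HIST1H2BF the H2B form that ends it in A.

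The promoters are shown next, because shared promoter letters go with the histone class. RefSeq promoters (GRCh38.p14, 250 bases before to 50 after the start) were matched for 47 of the 49 genes, by name and by overlap on the same strand. These were searched on both strands for the octamer ATTTGCAT, which the POU-domain factors including OCT1 and OCT4 can bind, for TATAAA, and for CCAAT; no matches of different motifs overlapped in these promoters. The most abundant gene of each class, HIST1H2AC as an H2A gene with the octamer, and HIST2H2BF, which recurs in the results, are printed for the 140 bases before the start, 5′ to 3′ on the gene's strand, with motif matches on either strand in capitals.
HIST1H1C (chr6:26056471-26056610, minus strand): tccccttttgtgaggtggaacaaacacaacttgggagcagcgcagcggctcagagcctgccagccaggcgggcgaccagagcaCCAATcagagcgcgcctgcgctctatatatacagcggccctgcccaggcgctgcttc
HIST2H2AA4 (chr1:149850921-149851060, plus strand): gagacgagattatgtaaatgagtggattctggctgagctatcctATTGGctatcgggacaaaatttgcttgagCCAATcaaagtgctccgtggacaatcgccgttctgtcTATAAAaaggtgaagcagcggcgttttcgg
HIST1H2AC (chr6:26124032-26124171, plus strand): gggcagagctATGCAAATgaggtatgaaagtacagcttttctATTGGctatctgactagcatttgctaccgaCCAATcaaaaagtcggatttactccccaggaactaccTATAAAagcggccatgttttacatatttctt
HIST1H2BK (chr6:27146856-27146995, minus strand): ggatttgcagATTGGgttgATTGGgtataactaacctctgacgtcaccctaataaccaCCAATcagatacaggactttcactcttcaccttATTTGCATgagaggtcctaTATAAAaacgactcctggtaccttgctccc
HIST2H2BF (chr1:149812371-149812510, minus strand): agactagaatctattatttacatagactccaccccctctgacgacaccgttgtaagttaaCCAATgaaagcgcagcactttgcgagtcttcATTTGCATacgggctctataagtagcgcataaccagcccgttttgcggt
HIST1H3H (chr6:27809911-27810050, plus strand): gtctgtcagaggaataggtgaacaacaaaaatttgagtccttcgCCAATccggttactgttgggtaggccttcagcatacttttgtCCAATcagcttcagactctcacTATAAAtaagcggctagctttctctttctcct
HIST1H4H (chr6:26285535-26285674, minus strand): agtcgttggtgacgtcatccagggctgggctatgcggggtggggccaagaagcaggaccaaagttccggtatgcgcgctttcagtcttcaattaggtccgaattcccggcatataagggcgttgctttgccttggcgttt
The octamer stood in 20 of the 47 promoters (42.6%), against 623 of 35116 RefSeq promoters (1.77%). All of them belonged to H2A (9 of 13) and H2B (11 of 15) genes, and 0 of 3 H1, 0 of 8 H3 and 0 of 8 H4 promoters held these letters. It read forward in 10 of the 11 H2B promoters and backward in 8 of the 9 H2A promoters. Neighbouring genes on opposite strands, such as HIST1H2AC and HIST1H2BC, have overlapping promoters, so the same octamer can be counted for both genes. Its direction then differs between them by strand alone. The counts of promoters are therefore not counts of separate sites. HIST1H2BK and HIST2H2BF both had the octamer beginning 49 bases before the start. TATAAA was found in 32 of the 47 promoters (68.1%, against 11.5% of all) and CCAAT in 40 (85.1%, against 34.6%), with CCAAT in 1 of the 8 H4 promoters. A match is a description of the letters and not a measurement of binding.

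In every library the cells had the transcripts of an epithelial line, with 189 to 263 TPM of EPCAM and 777 to 1006 TPM of KRT18, while KLK3, a marker of differentiated prostate epithelium, was listed at 0. PTPRC, a leukocyte marker, was at 0.0971 to 0.746 TPM. Of the fibroblast markers, COL1A1 was at 12.4 to 36.6 TPM, COL3A1 at 0.256 to 1.21 TPM and DCN at 0.133 to 0.547 TPM. Of the factors the reporter reads, SOX2 was at 0.08 TPM or less, and POU5F1, the OCT4 gene, was at 3.09 and 2.61 TPM in SORE6+ cells, against 2.82 and 2.14 TPM in SORE6- cells. Between 29778 and 31501 genes were above 0, and the histone genes together held 0.131% and 0.146% of all TPM in the SORE6+ libraries and 0.164% and 0.143% in the SORE6- libraries. TPM carries no read counts, so the precision of a value is known only from the 2 libraries of each gate. Whether the separate sorts came from separate cultures is not stated, so p-values measure the spread between these libraries.

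Most histone genes had a lower level in SORE6+ cells, but no single gene passed the test over all genes. On the log2(TPM + 1) scale, which understates differences of low genes, 42 of the 49 means were lower and 7 were higher, against 61.2% lower of all genes tested. Their log2 fold changes had a median of −0.34, and those of all genes tested had one of −0.05. The median was −0.55 without SORE6+ replicate 1 and −0.19 without SORE6- replicate 1. Both SORE6+ values were below both SORE6- values in 22 genes, against 20.2% of all genes, and above both in 1 gene, against 10.9% of all genes. In 8 of the 22 genes the level was also at least 1.5-fold lower on this scale, against 2.62% of all genes. With copies of nearly the same sequence summed, 46 entries remained, of which 40 had a lower mean. Of these 46 entries, 20 lay below in both SORE6+ libraries and 0 above, and 31 were lower in both pairs and 1 higher. By limma without a block, with p-values adjusted over all 17642 genes, 0 of the 49 genes were called lower (0% of all genes) and 0 higher (0% of all genes) by the threshold used, an adjusted p under 0.1 with a 1.5-fold difference. An unadjusted p under 0.05 was found for 6 of them, all lower in SORE6+ cells, and for 673 of all genes, of which 404 were lower. The smallest adjusted p among the histone genes was 0.952 (limma), for HIST2H4B. With 2 libraries against 2, an exact two-sided permutation test of a single gene cannot give a p below 0.333.

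Taken by pair, 33 of the 49 genes were lower in SORE6+ cells in both pairs (42.3% of all genes), 2 were higher in both (23.2% of all genes) and 14 went opposite ways. The difference was larger in pair 1, with 44 genes lower and a median of −0.48, than in pair 2, with 36 lower and a median of −0.28. Over all genes the medians were −0.05 in each pair. The SORE6- library of replicate 1 moved with this: it was the highest of the 4 libraries in 39 of the 49 histone genes and in 39.5% of all genes tested. Without that library 33 of the histone means were lower. With the replicate number as a block and only protein-coding genes in the fit, a setting taken with earlier results of these data known, limma called 10 of the 49 genes lower (0.725% of the 12826 genes of that fit) and 1 higher (0.554%). The lower genes were HIST1H1D, HIST1H2AM, HIST1H2BF, HIST1H2BG, HIST1H2BM, HIST1H3B, HIST2H2BF, HIST2H3C, HIST2H4B and HIST3H2BB, and the higher gene was HIST2H2AA3. With near-identical copies summed, a version chosen after seeing the data, 9 histone genes were called lower and 0 higher, and neither HIST2H4B nor HIST2H2AA3 was called as the sum with its copy. HIST1H1D passed the filter through the SORE6- libraries alone. Over all genes the fit with the block called 0.

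**Figure D1:**
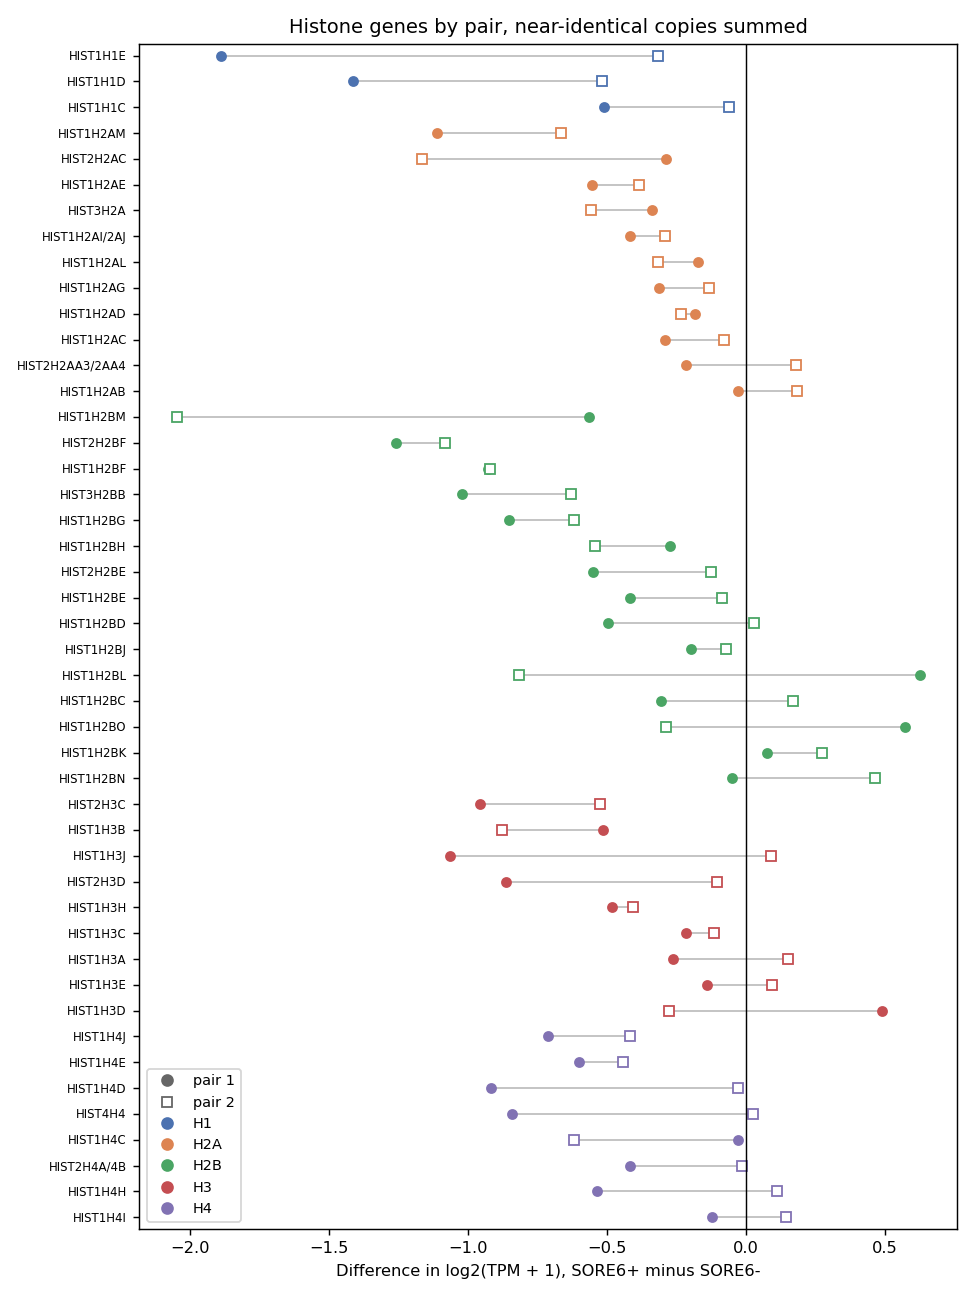
Difference in log2(TPM + 1), SORE6+ minus SORE6-, of each histone gene within pair 1 (filled circles) and pair 2 (open squares), colored by class, with the sums of 3 sets of near-identical copies in place of their members. Most points lie left of 0, and pair 1 lies further left than pair 2 for genes such as HIST1H1E (−1.89 and −0.32).

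Summed over all classes, histone transcripts overlapped between the gates, and a few abundant genes made up most of each sum. All 49 genes together reached 1308 and 1463 TPM in SORE6+ cells, against 1638 and 1433 TPM in SORE6- cells, and these values overlapped. The log2 ratio of the mean sums was −0.15, and it was −0.33 in pair 1 and 0.03 in pair 2, and −0.05 without SORE6- replicate 1. H1 was at 258 and 305 TPM in SORE6+ cells, against 376 and 320 TPM in SORE6- cells, a log2 ratio of −0.31. The H2A sum was 282 and 301 TPM in SORE6+ cells, against 350 and 308 TPM in SORE6- cells, with a log2 ratio of −0.17. These classes were lower in SORE6+ cells in both pairs, with no overlap of the gates, but pair 1 (−0.55 for H1 and −0.31 for H2A) differed more than pair 2 (−0.07 for H1 and −0.03 for H2A). Without SORE6- replicate 1 the log2 ratios were −0.18 for H1 and −0.08 for H2A. With relative log expression factors, another scaling of the libraries, they were −0.21 for H1 and −0.08 for H2A. The pairs and the overlap of the gates were read from TPM without such factors. H2B gave 583 and 636 TPM in SORE6+ cells, against 656 and 581 TPM in SORE6- cells, a log2 ratio of −0.02 with opposite signs in the pairs (−0.17 and 0.13). H4 gave 144 and 195 TPM in SORE6+ cells, against 198 and 191 TPM in SORE6- cells, again with opposite signs (−0.46 and 0.03). H3 was the least abundant class, at 39.9 and 26.5 TPM in SORE6+ cells, against 58.4 and 33.9 TPM in SORE6- cells. Its log2 ratio was −0.48, and it was lower in both pairs (−0.55 and −0.35), but SORE6+ replicate 1 lay above SORE6- replicate 2. The H3 ratio moved with each library left out, and was −0.03 without SORE6- replicate 1, −0.21 without SORE6+ replicate 2, −0.80 without SORE6+ replicate 1 and −0.81 without SORE6- replicate 2.

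**Figure D2:**
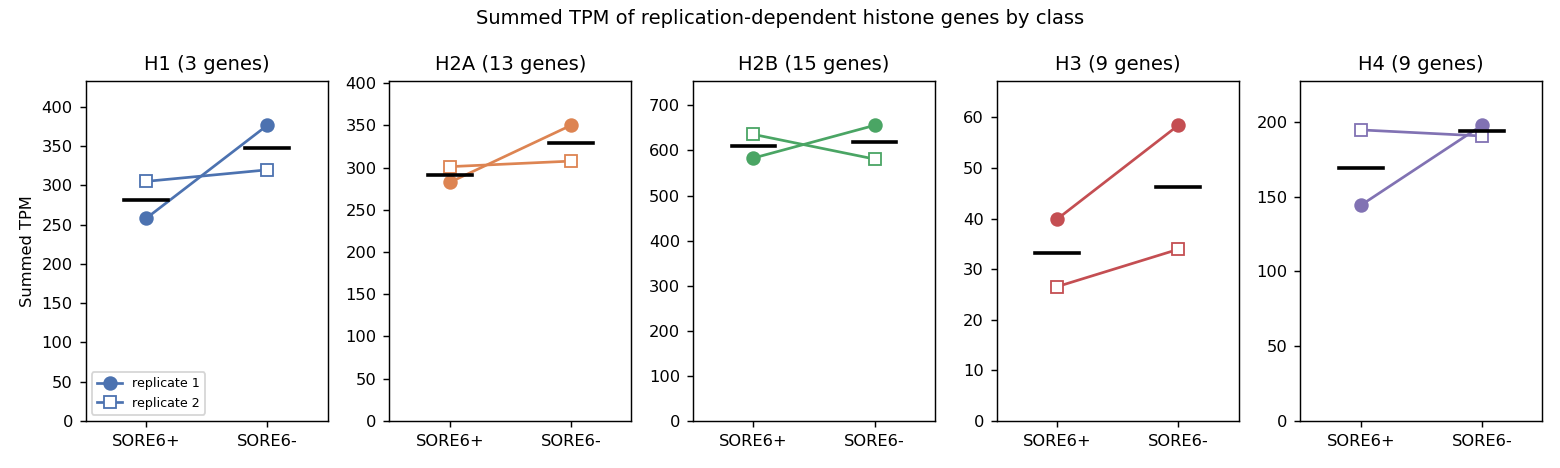
Summed TPM of the genes of each class in the 2 SORE6+ and 2 SORE6- libraries, with lines joining libraries of equal replicate number and black bars for the gate means. H1, H2A and H3 are lower in SORE6+ cells in both pairs, while the lines of H2B and H4 run opposite ways.

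The 3 linker histone genes were all lower in SORE6+ cells in both pairs, against 42.3% of all genes tested. Their gates did not overlap in TPM, with SORE6+ below, as in 20.2% of all genes tested. HIST1H1C carried nearly all of the class, at 256 and 303 TPM in SORE6+ cells, against 365 and 317 TPM in SORE6- cells (log2 fold change −0.29, SE 0.14). With relative log expression factors the log2 fold change of HIST1H1C was −0.20. HIST1H1E was at 1.38 and 1.40 TPM in SORE6+ cells, against 7.81 and 1.99 TPM in SORE6- cells. Its log2 fold change was −1.10 (SE 0.57), and −0.32 without SORE6- replicate 1, which stood above the other libraries. HIST1H1D had 0.863 and 0.549 TPM in SORE6+ cells, against 3.96 and 1.22 TPM in SORE6- cells (log2 fold change −0.97, SE 0.46). HIST1H1D passed the filter through the SORE6- libraries alone, so that it had to be higher there, and no histone gene passed through the SORE6+ libraries alone.

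Among the H2A genes, 11 of 13 were lower in SORE6+ cells by their means, and the largest single level belonged to copies in the HIST2 cluster. HIST2H2AA4 was at 96.9 and 89.7 TPM in SORE6+ cells, against 161 and 113 TPM in SORE6- cells (log2 fold change −0.53, SE 0.20). HIST2H2AA3, its near-identical copy, went the other way, at 41.9 and 77.0 TPM in SORE6+ cells, against 0.158 and 34.4 TPM in SORE6- cells. It was the 1 histone gene with both SORE6+ values above both SORE6- values, and its log2 fold change was 3.18 (SE 1.73), with 0.71 without SORE6- replicate 1 and 5.64 without SORE6- replicate 2. HIST1H2AC had 66.7 and 80.8 TPM in SORE6+ cells, against 81.8 and 85.5 TPM in SORE6- cells, which is −0.19 (SE 0.14) on the log2 scale. Its annotated transcripts with the stem-loop run at least 1114 bases past it. HIST1H2AM was at 4.24 and 3.57 TPM in SORE6+ cells, against 10.3 and 6.26 TPM in SORE6- cells (log2 fold change −0.89, SE 0.28). Both SORE6+ values of HIST1H2AM lay below both SORE6- values, but 87.1% of its 31-base sequences are shared with HIST1H3J, a gene it overlaps. The other H2A genes of the HIST1 cluster were lower or close between the gates, from −0.47 for HIST1H2AE to 0.08 for HIST1H2AB. HIST2H2AC was at 6.23 and 1.49 TPM in SORE6+ cells, against 7.82 and 4.57 TPM in SORE6- cells, with overlapping gates.

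H2B held both the most abundant histone transcript of these cells and several of the lowest ratios. HIST1H2BK was at 356 and 438 TPM in SORE6+ cells, against 337 and 363 TPM in SORE6- cells, higher in both pairs with a log2 fold change of 0.17 (SE 0.14). Its gates overlapped, since SORE6+ replicate 1 lay below SORE6- replicate 2. HIST1H2BK shares 74.4% of its 31-base sequences with H2BFS, an H2B gene outside the clusters, which had 18.8 and 24.0 TPM in SORE6+ cells, against 20.4 and 18.3 TPM in SORE6- cells. HIST1H2BD, the next in level, had 48.5 and 50.3 TPM in SORE6+ cells, against 68.9 and 49.3 TPM in SORE6- cells. HIST1H2BC had 50.2 and 47.1 TPM in SORE6+ cells, against 62.3 and 41.8 TPM in SORE6- cells. For both genes the pairs had opposite signs, with SORE6- replicate 1 the highest library.

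HIST2H2BF was the H2B gene above 10 TPM with the lowest ratio, at 7.99 and 4.74 TPM in SORE6+ cells, against 20.5 and 11.1 TPM in SORE6- cells. Its log2 fold change was −1.17 (SE 0.39), and the pairs gave −1.26 and −1.08. HIST1H2BG was at 16.4 and 13.3 TPM in SORE6+ cells, against 30.4 and 20.9 TPM in SORE6- cells (log2 fold change −0.73, SE 0.24). In both genes the SORE6+ values lay below the SORE6- values, and all annotated transcripts with the stem-loop run more than 100 bases past it. HIST1H2BM was at 1.60 TPM and listed at 0 in the SORE6+ libraries, against 2.84 and 3.13 TPM in SORE6- cells (log2 fold change −1.31, SE 0.52). HIST1H2BF had 4.92 and 1.14 TPM in SORE6+ cells, against 10.3 and 3.06 TPM in SORE6- cells. Its replicates differed more than the gates did (log2 fold change −0.92, SE 0.74), while the pairs gave almost equal differences of −0.93 and −0.92. HIST2H2BE, with transcripts that run 1729 bases past the stem-loop, was at 34.9 and 37.4 TPM in SORE6+ cells, against 51.5 and 40.9 TPM in SORE6- cells (log2 fold change −0.34, SE 0.16).

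The H3 genes were low, with HIST1H3H the highest of the class. It was at 9.86 and 9.17 TPM in SORE6+ cells, against 14.2 and 12.5 TPM in SORE6- cells (log2 fold change −0.44, SE 0.15) and nearly the same in the pairs (−0.48 and −0.41). HIST2H3C was at 5.49 and 4.49 TPM in SORE6+ cells, against 11.6 and 6.91 TPM in SORE6- cells (log2 fold change −0.74, SE 0.29). All of its 31-base sequences are shared with HIST2H3A, which was not analysed here. HIST1H3E had 5.26 and 4.69 TPM in SORE6+ cells, against 5.90 and 4.33 TPM in SORE6- cells, with a log2 fold change of −0.02 (SE 0.21). HIST1H3B had 4.19 and 1.14 TPM in SORE6+ cells, against 6.42 and 2.94 TPM in SORE6- cells, so the gates overlapped although both pairs were lower in SORE6+ cells.

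Of the 9 H4 genes, which all encode the same protein, the 3 most abundant overlapped between the gates. Both SORE6+ values lay below both SORE6- values in 3 others, against 20.2% of all genes tested. These 3 include HIST2H4B, whose sum with its near-identical copy HIST2H4A overlapped between the gates. HIST1H4H was at 46.3 and 65.9 TPM in SORE6+ cells, against 67.6 and 61.0 TPM in SORE6- cells, with overlapping gates and a log2 fold change of −0.21 (SE 0.20). HIST1H4I had 41.3 and 55.8 TPM in SORE6+ cells, against 45.0 and 50.4 TPM in SORE6- cells (log2 fold change 0.01, SE 0.19). HIST2H4A was at 30.2 and 51.4 TPM in SORE6+ cells, against 33.7 and 47.6 TPM in SORE6- cells (log2 fold change −0.02, SE 0.33). HIST2H4B was at 4.01 and 3.55 TPM in SORE6+ cells, against 12.3 and 7.88 TPM in SORE6- cells (log2 fold change −1.19, SE 0.26). HIST1H4J, chosen after its values were seen, had 10.4 and 10.4 TPM in SORE6+ cells, against 17.7 and 14.2 TPM in SORE6- cells (log2 fold change −0.56, SE 0.17). It shares 82.2% of its 31-base sequences with HIST1H4K, which was listed at 0 in every library.

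Where 2 genes are nearly the same in sequence, reads can be given to either copy, so 3 sets of copies were also summed. The HIST2H2AA genes share 100% and 97.2% of their 31-base sequences with each other, HIST2H2AA3 given before HIST2H2AA4. Their sum was 139 and 167 TPM in SORE6+ cells, against 161 and 147 TPM in SORE6- cells. The log2 fold change of this sum was −0.02 (SE 0.14) with overlapping gates, so the opposite differences of the single copies were not seen in the sum. The sum of HIST2H4A and HIST2H4B, which share 98.6% and 97.2%, was 34.2 and 55.0 TPM in SORE6+ cells, against 46.0 and 55.5 TPM in SORE6- cells. That sum also overlapped between the gates, with a log2 fold change of −0.21 (SE 0.27), so the lower level of HIST2H4B alone was not seen for the set. HIST1H2AI and HIST1H2AJ share 63.8% and 84.6%, and their sum of 11.9 and 13.4 TPM in SORE6+ cells was below the 16.2 and 16.6 TPM in SORE6- cells (log2 fold change −0.35, SE 0.14).

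**Figure D3:**
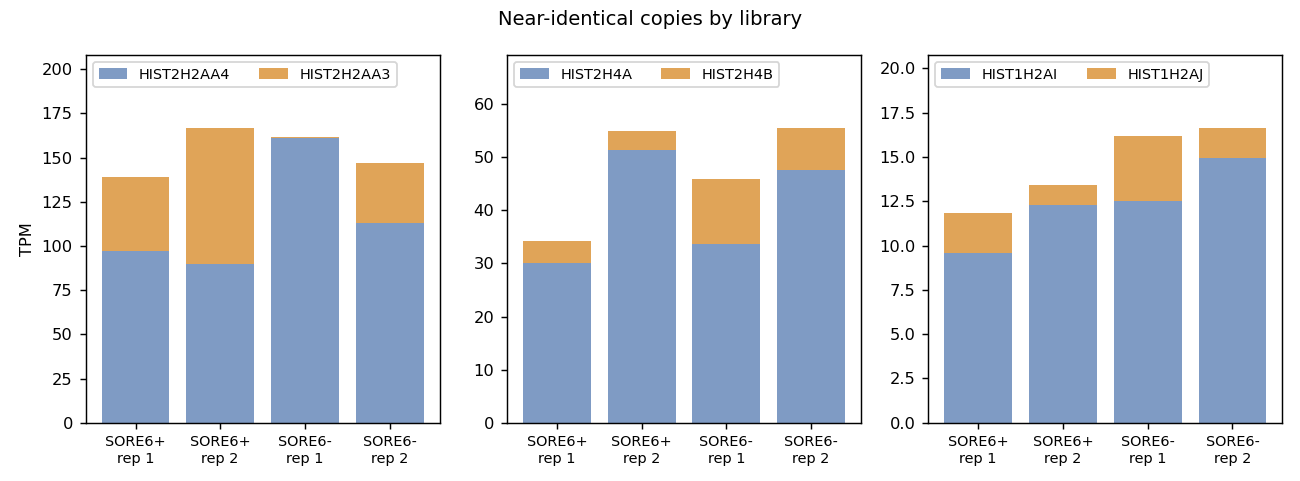
TPM of 3 sets of near-identical copies in each library, stacked so that the full bar is the sum of the set. HIST2H2AA3 is nearly absent from SORE6- replicate 1, at 0.158 TPM, where the whole bar is still 161 TPM.

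By cluster, HIST1 on chromosome 6 (26020490 to 27893843, GRCh38) held 37 of the genes and 79.4% to 80.7% of their TPM. Its sum was 1055 and 1174 TPM in SORE6+ cells, against 1301 and 1139 TPM in SORE6- cells, a log2 ratio of −0.13 with overlapping gates. The 9 genes of HIST2 on chromosome 1 (149782689 to 149887364) summed to 229 and 271 TPM in SORE6+ cells, against 302 and 268 TPM in SORE6- cells, a log2 ratio of −0.19, also with overlapping gates. HIST2 had the lower median of these 2 clusters, −0.53 against −0.25 for HIST1, but 4 of its 9 genes are near-identical copies. HIST3 on chromosome 1 (228456979 to 228460470) holds 2 of the genes, and both were lower in SORE6+ cells in both pairs. HIST3H2A was at 18.1 and 14.0 TPM in SORE6+ cells, against 23.1 and 21.1 TPM in SORE6- cells (log2 fold change −0.45, SE 0.17). HIST3H2BB was at 1.67 and 0.721 TPM in SORE6+ cells, against 4.41 and 1.66 TPM in SORE6- cells (log2 fold change −0.82, SE 0.46) with a slight overlap of the gates. HIST4H4, the gene of HIST4 on chromosome 12 (14767999 to 14771131), was at 4.16 and 3.22 TPM in SORE6+ cells, against 8.24 and 3.15 TPM in SORE6- cells. Only SORE6- replicate 1 stood apart there, and pair 2 differed by 0.03 on the log2(TPM + 1) scale.

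Many of these genes encode the same protein, and the 49 genes gave 26 distinct proteins by their Swiss-Prot entries, of which 7 were encoded by more than 1 gene. The H3 protein encoded by 7 HIST1 genes had summed transcripts of 33.3 and 20.5 TPM in SORE6+ cells, against 44.0 and 25.2 TPM in SORE6- cells, a log2 ratio of −0.37. The other H3 protein, of HIST2H3C and HIST2H3D, had 6.59 and 6.06 TPM in SORE6+ cells, against 14.4 and 8.67 TPM in SORE6- cells, a log2 ratio of −0.87 with no overlap. An H2A protein shared by HIST1H2AG, HIST1H2AI, HIST1H2AL and HIST1H2AM had 18.4 and 19.9 TPM in SORE6+ cells, against 28.8 and 26.1 TPM in SORE6- cells, a log2 ratio of −0.52, also with no overlap. The H2B protein of HIST1H2BC, HIST1H2BE, HIST1H2BF and HIST1H2BG had 72.4 and 62.6 TPM in SORE6+ cells, against 104 and 66.9 TPM in SORE6- cells, so the gates overlapped.

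The lower levels were found mostly among the less abundant histone genes. Split at a mean of 20 TPM, a value chosen after the levels were seen, the 36 genes below it had a median log2 fold change of −0.45, and 27 of them were lower in SORE6+ cells in both pairs. All genes tested at that level had a median of −0.08, with 42.7% lower in both pairs. The 13 genes at or above 20 TPM had a median of −0.19, and 6 were lower in both pairs, while all genes at that level had a median of −0.03, with 41.5% lower in both pairs. The summed TPM of the 36 lower genes had a log2 ratio of −0.62, with −0.67 in pair 1 and −0.54 in pair 2. The sum of the 13 abundant genes had a ratio of −0.08, with −0.26 in pair 1 and 0.09 in pair 2. Without HIST1H1C and HIST1H2BK, the most abundant genes, the ratio of all others was −0.25. Near-identical copies were kept apart in the split at 20 TPM. HIST2H4B (log2 fold change −1.19) thus fell below it and its copy HIST2H4A (−0.02) above it.

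**Figure D4:**
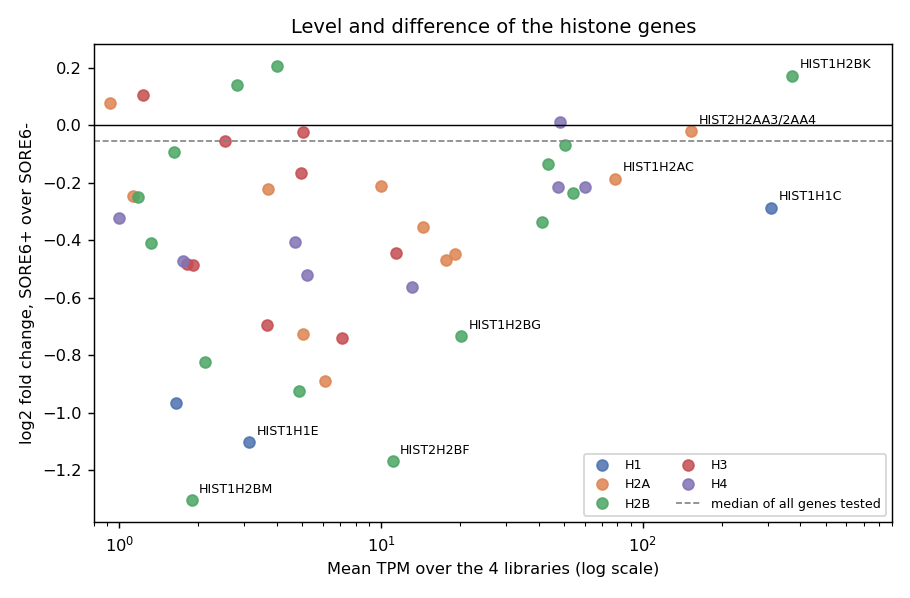
The log2 fold change of each histone gene, SORE6+ over SORE6- on the log2(TPM + 1) scale, against its mean TPM over the 4 libraries on a log axis, with near-identical copies summed and genes colored by class. HIST1H1C (−0.29) and HIST1H2BK (0.17) lie far right near 0, and genes such as HIST2H2BF (−1.17) lie lower at lower levels, while the dashed line marks the median of all genes tested (−0.05).

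Grouped by the annotated end of the transcript, genes of every kind had a lower median in SORE6+ cells. In 17 genes all transcripts with the stem-loop run over 100 bases past it, and their transcripts without it were not considered. These 17 genes had a median log2 fold change of −0.44, and 16 of them had a lower mean. The 10 genes with a transcript that ends within 100 bases of the stem-loop had a median of −0.24. The 22 with no match to the stem-loop pattern in their annotated transcripts had one of −0.31. These groups came from the annotation and not from measured ends, and the difference between them was not tested. By promoter, the 20 H2A and H2B genes with the octamer had a median of −0.29 and the 8 without it one of −0.27, and both HIST1H2BK, the highest H2B gene, and HIST2H2BF held it. Among H2B genes alone the medians were −0.34 with the octamer (11 genes) and −0.16 without it (4 genes), and this difference was not tested.

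Genes around histone production were measured alongside, and 0 were called in any of 4 lists by limma without a block. Of 16 genes that make histone mRNA, 13 were lower in SORE6+ cells by their means, against 61.2% of all genes tested. Their median was −0.08 on the log2 scale, with 0 at an unadjusted p under 0.05 (limma). SLBP, which binds the stem-loop and is named for that role, was at 53.2 and 54.8 TPM in SORE6+ cells, against 61.3 and 61.3 TPM in SORE6- cells (log2 fold change −0.18, SE 0.10). LSM10, a component of the U7 particle that cleaves the mRNA, had 90.1 and 106 TPM in SORE6+ cells, against 79.8 and 98.0 TPM in SORE6- cells. CDK2, the kinase that with cyclin E turns on histone transcription, had 67.5 and 66.5 TPM in SORE6+ cells, against 64.4 and 68.6 TPM in SORE6- cells. Of 16 genes of DNA synthesis and nucleosome assembly, 7 had a lower and 9 a higher mean, with a median of 0.01. PCNA, the sliding clamp of the DNA polymerases, had 173 and 218 TPM in SORE6+ cells, against 192 and 216 TPM in SORE6- cells. NASP, a chaperone of histones, had 137 and 114 TPM in SORE6+ cells, against 168 and 125 TPM in SORE6- cells. In neither gene did the gates separate.

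The replacement histones, most of which are made outside S phase as well and have polyadenylated mRNAs, were lower in SORE6+ cells in 9 of 10 means. That compares with 61.2% of all genes tested, and the median was −0.07. H2AFX was the exception, at 211 and 123 TPM in SORE6+ cells, against 174 and 107 TPM in SORE6- cells. H3F3B, a gene for histone H3.3, had 1260 and 862 TPM in SORE6+ cells, against 1295 and 856 TPM in SORE6- cells. H1F0, a linker histone, had 600.0 and 278 TPM in SORE6+ cells, against 625 and 295 TPM in SORE6- cells. Both genes thus differed far more between replicates than between gates. Of 15 other genes that lie within HIST1, 13 could be tested, and 6 had a lower and 7 a higher mean, with a median of 0.02. Both SORE6+ values lay below both SORE6- values in 5 of them and above in 2, against 20.2% and 10.9% of all genes. The 5 include AL031777.3, which shares nearly all of the sequence of HIST1H2AD and HIST1H3D, so it is not separate from the histone genes. HMGN4, a nucleosome-binding protein gene there, was at 84.8 and 81.5 TPM in SORE6+ cells, against 109 and 122 TPM in SORE6- cells (log2 fold change −0.47, SE 0.11). PRSS16, a serine protease gene, had 15.4 and 20.6 TPM in SORE6+ cells, against 17.2 and 17.9 TPM in SORE6- cells.

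At the edge of the filter, HIST1H2AB was the lowest gene included, with 1.30 and 0.616 TPM in SORE6+ cells, against 1.34 and 0.423 TPM in SORE6- cells. HIST1H2AK was the highest gene left out, with 1.35 and 0.946 TPM in SORE6+ cells, against 0.300 and 0.522 TPM in SORE6- cells. HIST1H2BB, the next, had 0.684 and 0.217 TPM in SORE6+ cells, against 1.18 and 0.895 TPM in SORE6- cells. Of the 20 genes below the filter, 6 were listed at 0 in every library. In 37 of the 49 genes all 4 libraries reached 1 TPM.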

How the data were processed

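PC3 cells were sorted into the SORE6+ and SORE6- gates, and their RNA (RIN above 7) was sequenced on the BGISEQ-500, with 2 libraries per gate. The authors trimmed reads (Trim Galore), quantified transcripts with salmon and used tximport for gene levels. The submitters' processing notes list GRCh38. Tool versions: not given in the sources used here. The deposited TPM values of the authors keep no depth, so precision rests on replicate spread. After log2(TPM + 1), the 17642 genes that reached 1 TPM in 2 or more libraries were fitted with limma 3.58.1 (R 4.3.3, trend) with the gate as the term and Benjamini-Hochberg adjustment. The fit was tested on simulated data. Differences by pair were taken between libraries of equal replicate number.

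The histone genes and lists were chosen with earlier results of these data known. Named genes were the 3 most abundant of each class, genes whose gates did not overlap with at least 1.5-fold, genes above in both SORE6+ libraries, genes called in either fit, near-identical copies (at least 50% of 31-base sequences shared), HIST3 and HIST4 genes and the 2 highest genes of a list; a few others are named as examples of a range, for their level, or after their values were seen. Stem-loops, shared sequences and gene positions came from GENCODE v29 and promoters from RefSeq. Alternatives changed the pseudocount, filter, scaling, block, copies and libraries.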

Additional observations from a re-analysis of the deposited data

How the results depend on the processing

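The libraries bear equal replicate numbers, and deviations of same-numbered libraries correlated at 0.34 over all genes tested and 0.48 over the histone genes, while the methods describe separate pairs of sorted cells without saying that the number marks a pair. With the replicate block over all genes limma called 0 genes. Over protein-coding genes the replicate block called 93 genes lower and 71 higher, and 10 histone genes lower and 1 higher. With copies summed as well, a setting chosen after seeing the data, it called 92 lower and 70 higher, and 9 histone genes lower and 0 higher. Without the block the protein-coding genes, also a setting chosen after seeing the data, gave 0 calls. Without the filter on low values limma called 12 genes lower and 7 higher, with 0 histone genes, and 2 histone genes then lay above in both SORE6+ libraries, against 0 with copies summed. With a minimum mean of 5 TPM, 26 histone genes remained. Of these 26 genes, 23 means were lower, 13 genes lay below in both SORE6+ libraries and 18 were lower in both pairs. Genes higher in both pairs numbered 1 with copies summed and 4 with either relative log expression or upper-quartile factors, under which 38 means were lower. Those factors reversed HIST1H2BC (0.0127 and 0.00683), HIST1H3E (0.0468 and 0.0417) and HIST2H4A (0.0588 and 0.0530). They also reversed the log2 ratio of the summed TPM of H2B (0.07 and 0.06). For all histone genes together that ratio was −0.06 with either factor. It was −0.08 and −0.09 for H2A, and −0.04 and −0.05 for HIST1.

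With 1 library left out, the median over the histone genes was −0.55 to −0.19. The log2 ratio of the summed TPM was −0.81 to −0.03 for H3, −0.43 to 0.00381 for H4 and −1.16 to 0.23 for HIST4. Single genes that reversed ranged from −0.47 to 0.00225 (HIST1H2BD), −0.35 to 0.21 (HIST1H2BC), −0.21 to 0.16 (HIST1H3E), −0.46 to 0.0364 (HIST1H4H), −0.20 to 0.22 (HIST1H4I), −0.40 to 0.35 (HIST2H4A) and −0.99 to 0.17 (HIST4H4). The causes of these shifts were not tested. Over the 27 genes named by rule, 303 values kept their direction and call, 20 passed only under an alternative and 16 reversed.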

Other observations

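Histone entries outside the described set were also read. HIST2H2BC, which RefSeq classes as a pseudogene and which was therefore left out, was at 14.1 and 14.8 TPM in SORE6+ cells, against 23.7 and 16.8 TPM in SORE6- cells, with no overlap of the gates. HIST2H2AB, below the filter, was at 0.216 and 0.205 TPM in SORE6+ cells, against 1.79 and 0.635 TPM in SORE6- cells. AL031777.3, a gene that overlaps HIST1H2AD and HIST1H3D and shares nearly all of their sequence, was at 8.27 and 9.02 TPM in SORE6+ cells, against 12.8 and 11.0 TPM in SORE6- cells. Reads of those histone genes can be given to it, and whether that moved their values was not tested. HIST1H3D itself had 2.93 TPM in SORE6+ replicate 1 and was listed at 0 in SORE6+ replicate 2, against 1.81 and 0.211 TPM in SORE6- cells.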
